A study of Mus musculus with 6 samples.

Results

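Genes of the extracellular end of Wnt signalling were compared between the mouse malignant mesothelioma lines AC29 and AB1. The members were genes of the array whose single platform symbol was that of a Wnt ligand, a Frizzled receptor, an LRP5/6 or ROR co-receptor, an R-spondin, an R-spondin receptor (Lgr4 to Lgr6), a ubiquitin ligase or secreted antagonist of the pathway, or one of its core feedback and TCF/LEF genes. The rule found 61 genes with 126 probe sets, of 18193 genes with 34945 single-symbol probe sets on the array. A gene with several probe sets was read by the brightest one, averaged over all 6 arrays. Tcf7, which the rule also spells out, had no single-symbol probe set and was not analysed here.

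Wnt proteins are secreted, lipid-modified ligands that bind Frizzled receptors together with LRP5 or LRP6, which stops a cytoplasmic complex built on Axin from marking beta-catenin for degradation, so that beta-catenin can act with TCF/LEF factors on target genes. Other Wnt ligands act through ROR receptors and planar polarity proteins without beta-catenin. R-spondins bind Lgr receptors and keep the ligases Znrf3 and Rnf43 from removing Frizzled from the cell surface, while Dickkopf proteins bind LRP5/6, and Sfrp proteins, Frzb and Wif1 bind Wnt ligands. During development the coelomic epithelium, the forerunner of mesothelium, is a source of several of these signals, and the lining of body cavities is the tissue from which mesothelioma arises.

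AC29 (strain CBA, passage 60) and AB1 (strain BALB/c, passage 40) are lines without a treatment or engineered allele in the labels; for both the labels give female mice of 6 to 8 weeks. RNA came from 3 flasks of each line at 80% confluency, with 1 Affymetrix 3′ expression array per flask, so p-values measure the spread between flasks. Each group is 1 cell line, and line, strain, passage and any batch coincide and cannot be told apart. The values are the authors' log2 intensities.

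The median per array lay between 5.76 and 5.81, and AC29 replicate 14 had the lowest array weight in limma (0.449 against 0.887 to 1.70 on the others). Of 10 mesothelial markers, 8 were higher in AC29, none was higher in AB1, and all 10 were above background in a line. Wt1 read 9.59 ± 0.10 in AC29 and 4.77 ± 0.23 in AB1 (SD, n = 3 each), so that this defining marker was not above background in AB1, while Msln read 10.41 ± 0.23 in AC29 and 9.67 ± 0.10 in AB1. None of 17 macrophage, lymphocyte and endothelial markers passed the call rule. Above background in a line were 3 of 7 macrophage, 3 of 5 lymphocyte and 1 of 5 endothelial markers. The lymphocyte marker Cd3e, for example, read 7.01 ± 0.16 in AC29 and 6.83 ± 0.16 in AB1. Readings a little above background thus also occurred for markers of other cell types. The pan-leukocyte marker Ptprc was not above background on any array. Of 6 fibroblast markers, Dcn and Col1a1 were higher in AC29 and Pdgfrb was higher in AB1.

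A member was called where limma gave an adjusted p under 0.05 and the lines differed at least 2-fold. A probe set was taken as above background where an array exceeded 6.07, a floor set by olfactory, vomeronasal and taste receptor probe sets. Where all 3 arrays of the dimmer line lay at or under this floor, the fold is a lower bound against it. By this measure 30 members were above the floor in both lines, 2 in AC29 alone, 5 in AB1 alone and 24 in neither.

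AC29 and AB1 each had higher values for a part of the Wnt pathway genes. In AC29 the R-spondin Rspo1, the receptor Fzd6 and the ligands Wnt10a, Wnt4, Wnt9a, Wnt5a and Wnt6 were higher, with the scaffold Axin1. In AB1 the antagonists Dkk2 and Dkk3, the R-spondin Rspo2, the receptors Fzd5, Lgr6 and Ror2 and the ligase Znrf3 were higher. In all, 15 of 61 members (24.6%) were called, against 10.9% of all genes. Higher in AC29 were 8 of the 61 members, against 5.12% of all genes, and higher in AB1 were 7 of the 61, against 5.82% of all genes. For 37 members (60.7%) every AC29 array lay on one side of every AB1 array, as for 50.1% of all genes. Without the 2-fold minimum, 29 members (47.5%) had an adjusted p under 0.05, 17 higher in AC29 and 12 higher in AB1, against 39.1% of all genes. The median difference of the members was 0.10 on the log2 scale and the median size of a difference was 0.29, against -0.0047 and 0.20 over all genes. Standard errors of the members' differences ran from 0.079 to 0.169. Whole flasks were extracted, so a lower value can mean less RNA per cell or fewer cells that carry it, which cannot be told apart.

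**Figure D1:**
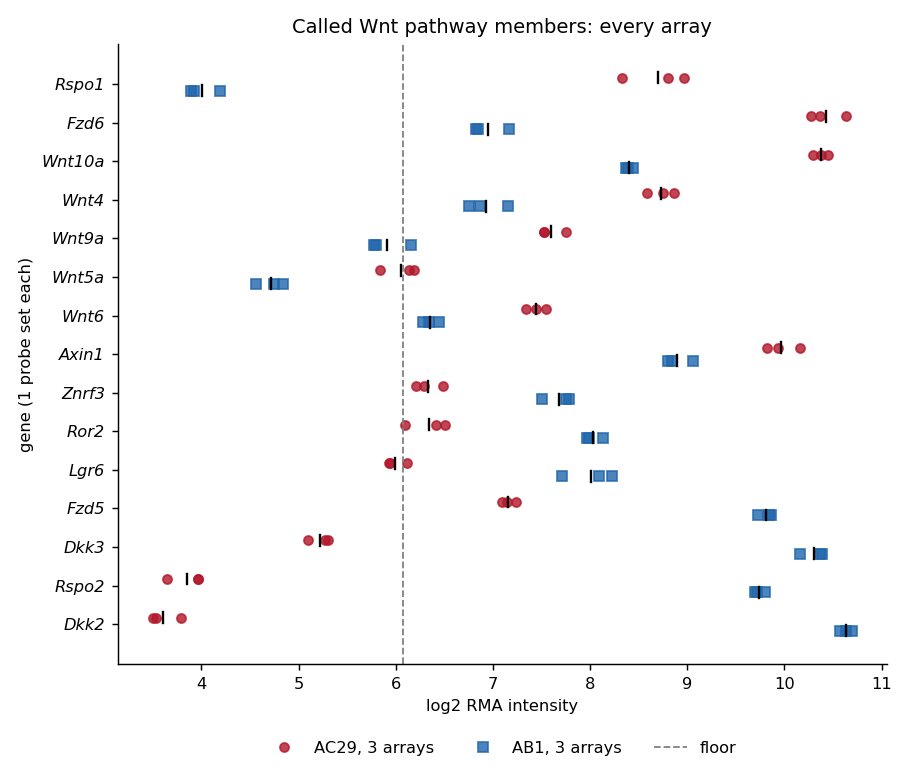
Log2 RMA intensity (x axis) on every array for the 15 called members (y axis), AC29 as red circles above AB1 as blue squares, with black ticks at the mean of 3 arrays and the dashed line at the floor of 6.07. The arrays of the lines stand apart for all 15 genes, and Dkk2, Rspo2 and Dkk3 lie under the floor on all AC29 arrays, as Rspo1 does on all AB1 arrays.

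**Figure D2:**
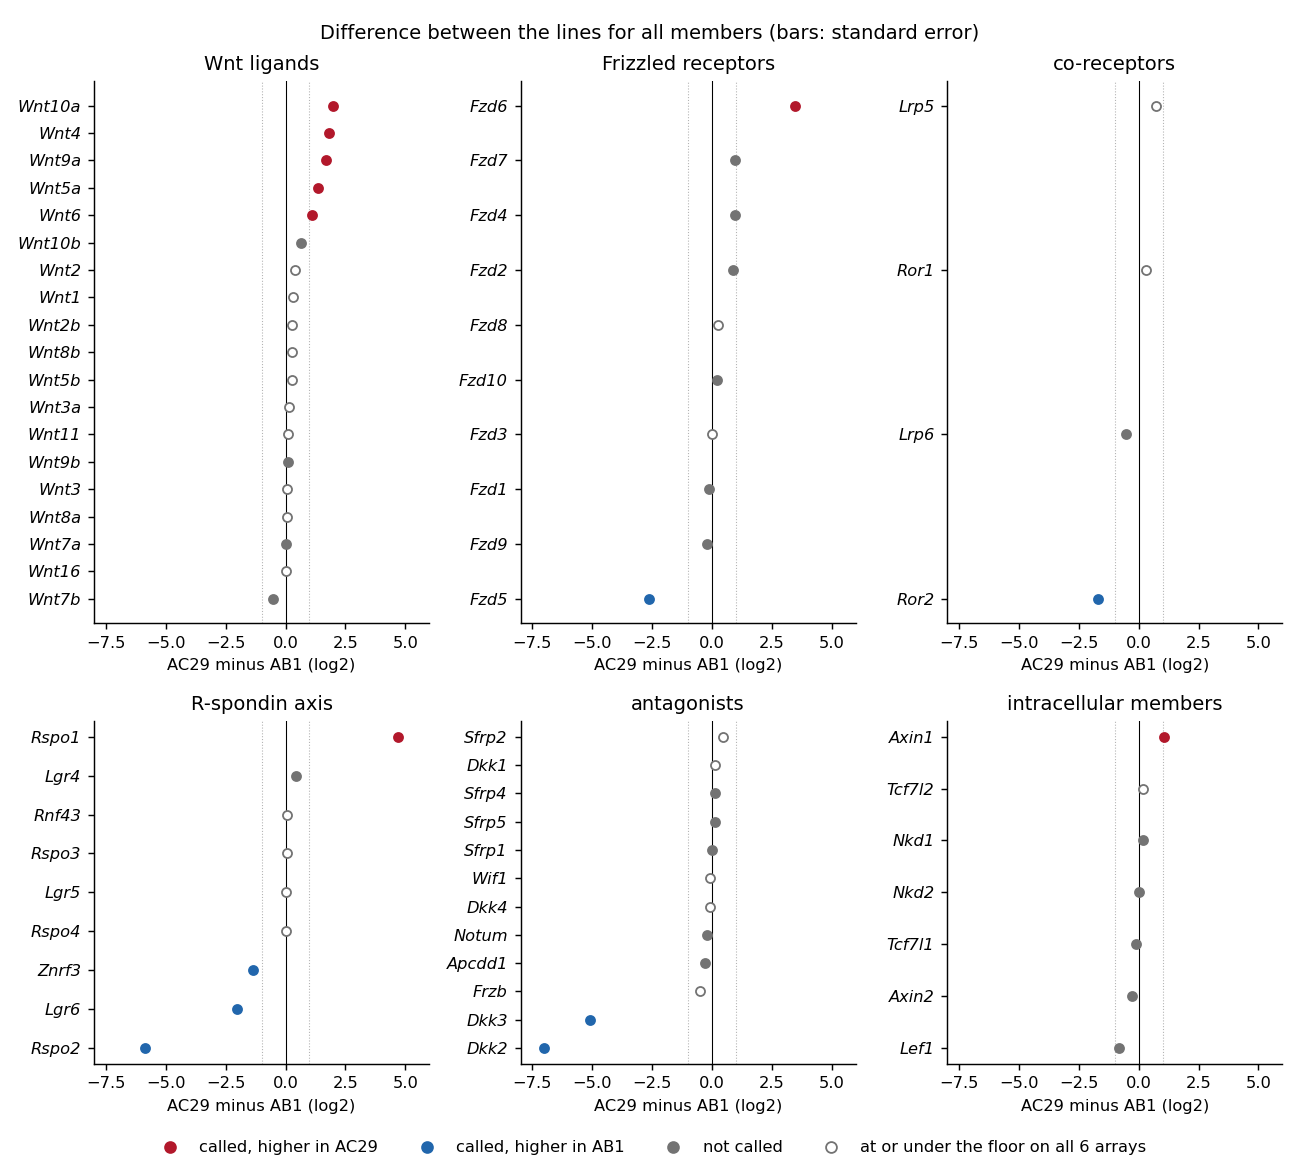
Difference AC29 minus AB1 on the log2 scale (x axis) for all 61 members (y axis) by role, with bars for the standard error, which are mostly smaller than the points, and dotted lines at a 2-fold difference. Open points are the 24 genes at or under the floor on all 6 arrays. No Wnt ligand lies beyond the 2-fold line on the AB1 side, where 5.82% of all genes were called.

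Promoter sequence was available for 40 of the 61 members, with 48 start sites in RefSeq's table for GRCm38.p6. The 5 called members with the largest differences among them, an antagonist, an R-spondin, a Frizzled receptor, an R-spondin receptor and a ligand, are shown as the 250 bases before the start, 5′ to 3′ on the gene's strand, since their base composition and motif content were unlike.
Dkk2, chr3:132085042-132085291, plus strand: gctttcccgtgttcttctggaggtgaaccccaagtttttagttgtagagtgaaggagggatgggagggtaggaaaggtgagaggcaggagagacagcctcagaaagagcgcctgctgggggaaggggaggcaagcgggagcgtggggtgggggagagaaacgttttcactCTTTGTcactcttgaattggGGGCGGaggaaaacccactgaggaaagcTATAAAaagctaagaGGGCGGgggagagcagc
Rspo1, chr4:124986180-124986429, plus strand: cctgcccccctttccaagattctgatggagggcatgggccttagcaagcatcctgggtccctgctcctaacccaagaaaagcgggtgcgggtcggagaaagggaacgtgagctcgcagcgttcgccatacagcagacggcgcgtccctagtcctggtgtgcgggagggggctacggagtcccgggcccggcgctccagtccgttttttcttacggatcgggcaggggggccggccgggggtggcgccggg
Fzd5, chr1:64737751-64738000, minus strand: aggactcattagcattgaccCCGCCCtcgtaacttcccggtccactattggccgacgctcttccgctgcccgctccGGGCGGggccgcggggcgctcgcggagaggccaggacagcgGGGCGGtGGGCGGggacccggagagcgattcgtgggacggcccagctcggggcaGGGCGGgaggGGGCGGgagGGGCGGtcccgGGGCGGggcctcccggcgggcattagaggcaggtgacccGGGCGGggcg
Lgr6, chr1:135105277-135105526, minus strand: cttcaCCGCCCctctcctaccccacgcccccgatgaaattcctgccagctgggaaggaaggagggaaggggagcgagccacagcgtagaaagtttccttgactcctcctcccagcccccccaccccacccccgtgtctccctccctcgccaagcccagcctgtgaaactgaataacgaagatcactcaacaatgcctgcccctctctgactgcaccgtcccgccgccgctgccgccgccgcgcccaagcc
Wnt4, chr4:137277385-137277634, plus strand: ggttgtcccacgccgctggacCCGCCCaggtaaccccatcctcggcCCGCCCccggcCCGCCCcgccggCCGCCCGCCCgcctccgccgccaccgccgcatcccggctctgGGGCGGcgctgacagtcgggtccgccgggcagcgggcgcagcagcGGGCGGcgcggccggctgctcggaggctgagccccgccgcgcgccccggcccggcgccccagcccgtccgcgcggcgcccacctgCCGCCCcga
Capitals mark matches on either strand to the TCF/LEF core CTTTGA or CTTTGT, the GC box GGGCGG, the TATA box TATAAA or the WT1/EGR site GCGTGGGNG. The promoter of Dkk2 held 1 TCF/LEF core, 80 bases before the start, a TATA box 32 bases before it and 2 GC boxes, with 55.6% G and C and 7 CpG pairs. The promoter of Wnt4 held 8 GC boxes, some of them overlapping, with 85.2% G and C and 44 CpG pairs, and that of Fzd5 held 9 GC boxes. The promoter of Lgr6 held 1 GC box, and that of Rspo1 none of the 4 motifs in this window. Over the 48 member promoters the medians were 65.8% G and C and 16.5 CpG pairs, against 52.4% and 6 over all 32851 promoters. The TCF/LEF core was found in 13 of the 48 (27.1%), against 27.6% of all promoters, and in 2 of the 8 promoters of called members, those of Dkk2 and Ror2. The GC box was found in 32 of the 48 (66.7%), against 32.7% of all promoters, and the TATA box in 14.6% against 12.4%. The WT1/EGR site was found in only 3 member promoters (6.25%), against 1.65% of all. The GC box and the WT1/EGR site are themselves rich in G and C, and the shares were not adjusted for base composition. These matches describe the letters and were not tested against the expression values.

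The called ligands were all higher in AC29. Of 19 Wnt genes, 5 were higher in AC29, none was higher in AB1 and 14 were not called. Wnt10a, a ligand of the beta-catenin branch known from teeth and hair follicles, read 10.29, 10.38 and 10.45 in AC29, against 8.44, 8.37 and 8.39 in AB1. All AC29 arrays were above all AB1 arrays, 3.93-fold (log2 difference 1.97, SE 0.083, adjusted p = 1.07e-07 in limma), and the gene was well above the floor in both lines. Wnt4, which directs tubule formation in the kidney and ovary development, read 8.76, 8.58 and 8.86 in AC29, against 6.86, 6.76 and 7.16 in AB1. The groups did not overlap and the difference was 3.50-fold (SE 0.123 on the log2 scale, adjusted p = 2.98e-06). Wnt9a, a ligand of joint formation, read 7.52, 7.53 and 7.75 in AC29, against 5.78, 5.79 and 6.16 in AB1. Only 1 AB1 array exceeded the floor, and the difference was 3.23-fold (adjusted p = 4.95e-06). Wnt6 read 7.34, 7.44 and 7.54 in AC29, against 6.34, 6.45 and 6.28 in AB1. It was 2.12-fold higher in AC29 (adjusted p = 1.27e-05), close to the 2-fold minimum.

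Wnt5a, the ligand best known for signalling without beta-catenin, read 6.19, 5.84 and 6.14 in AC29, against 4.56, 4.84 and 4.74 in AB1. The groups did not overlap (log2 difference 1.34, adjusted p = 1.68e-05), but 2 AC29 arrays were just above the floor and no AB1 array was, so no fold is given. Wnt7b, a ligand of lung and vessel development, went the other way with 8.80, 8.92 and 9.21 in AC29, against 9.61, 9.64 and 9.31 in AB1. The groups did not overlap, and the difference was 1.45-fold toward AB1 (adjusted p = 0.00949), under the 2-fold minimum. Its other probe set read 7.26 in AC29 and 8.05 in AB1, 1.72-fold toward AB1 and also under the minimum. Wnt10b, known from bone and fat precursors, read 7.4 ± 0.19 in AC29 and 6.75 ± 0.12 in AB1 (SD, n = 3 each), 1.57-fold (adjusted p = 0.0015). Wnt7a read 7.47 ± 0.05 in AC29 and 7.44 ± 0.03 in AB1, and Wnt9b lay at the floor in both lines. The other 10 ligands, Wnt1, Wnt2, Wnt2b, Wnt3, Wnt3a, Wnt5b, Wnt8a, Wnt8b, Wnt11 and Wnt16, lay between 2.65 and 6.04 and were not above the floor on any array. Of these, Wnt2 passed the adjusted p (0.00709) with a difference of 0.38 between values under the floor.

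The Frizzled receptors, which bind Wnt ligands, differed most for Fzd6 and Fzd5, in opposite directions. Fzd6, a receptor of planar polarity in skin and hair, read 10.63, 10.28 and 10.36 in AC29, against 6.85, 7.17 and 6.83 in AB1. The AC29 arrays were far above the AB1 arrays, an 11.1-fold difference (log2 difference 3.47, SE 0.127, adjusted p = 4.42e-08). Fzd5, a receptor that couples to beta-catenin, read 7.09, 7.23 and 7.15 in AC29, against 9.85, 9.86 and 9.73 in AB1. It was 6.30-fold higher in AB1 without overlap (SE 0.085 on the log2 scale, adjusted p = 1.93e-08). Of 10 Frizzled genes these 2 were called, beside 10.9% of all genes.

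A further 3 receptors passed the adjusted p and stayed just under the 2-fold minimum, all on the AC29 side. Fzd7 read 9.44, 9.17 and 9.51 in AC29, against 8.31, 8.57 and 8.37 in AB1, 1.94-fold (adjusted p = 0.000132). Fzd4, the receptor for norrin in retinal vessels, read 8.99, 8.80 and 8.90 in AC29, against 7.95, 8.12 and 7.77 in AB1, 1.93-fold (adjusted p = 8.88e-05). Fzd2 read 10.58, 10.54 and 11.08 in AC29, against 9.93, 9.90 and 9.79 in AB1, 1.82-fold (adjusted p = 0.000985). For each of the 3 the groups did not overlap by the brightest probe set. Another Fzd4 probe set above the floor read 7.90 in AC29 and 7.70 in AB1, with overlapping arrays. The other Fzd2 probe sets above the floor gave 1.88-fold and 1.28-fold toward AC29. Without AC29 replicate 14 the differences of Fzd7 and Fzd4 by the brightest probe set were 1.06 and 1.0 on the log2 scale. Without AB1 replicate 5 they were 1.03 and 1.04, all past the call rule. Leaving out any other array kept both under the minimum, at 0.89 to 0.94 for Fzd7 and 0.87 to 0.95 for Fzd4. Fzd1 read 7.78, 7.46 and 7.62 in AC29, against 7.59, 7.76 and 7.85 in AB1, with overlapping arrays (log2 difference -0.11, SE 0.111, adjusted p = 0.488). Fzd10 (6.69 ± 0.06 in AC29 and 6.49 ± 0.05 in AB1, SD, n = 3 each) did not pass, Fzd9 lay near the floor, and Fzd3 and Fzd8 were not above it in either line.

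Among the co-receptors 1 of 4 was called, beside 10.9% of all genes. Ror2, a tyrosine kinase-like receptor for Wnt5a, read 6.51, 6.10 and 6.42 in AC29, against 7.99, 8.13 and 7.96 in AB1. It was 3.23-fold higher in AB1 (log2 difference -1.69, SE 0.118, adjusted p = 3.49e-06), with the AC29 arrays barely above the floor. Another Ror2 probe set lay under the floor in both lines, with overlapping arrays. By the brightest probe sets the line with the lower Ror2 had the higher Wnt5a, whose AC29 values lay near the floor. Whether the genes are linked was not tested. Lrp6, a co-receptor of the beta-catenin branch, read 8.42, 7.90 and 8.27 in AC29, against 8.59, 8.88 and 8.68 in AB1, 1.43-fold toward AB1 (adjusted p = 0.0162) by this probe set. Its other probe set read 8.25 in AC29 and 8.30 in AB1. Lrp5 and Ror1 stayed under the floor on all arrays by their brightest probe sets.

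Of the R-spondins, which raise Frizzled at the cell surface, a different member was high in each line. Rspo1, which with Wnt4 is needed for ovary development in mice, read 8.81, 8.33 and 8.96 in AC29, against 4.19, 3.89 and 3.93 in AB1. It was above the floor on every AC29 array and on no AB1 array, at least 6.18-fold higher in AC29 (log2 difference 4.70, SE 0.162, adjusted p = 2.94e-08). Rspo2, needed for limb and lung development in mice, read 3.96, 3.96 and 3.64 in AC29, against 9.72, 9.80 and 9.70 in AB1. The pattern was the reverse of that of Rspo1, at least 12.7-fold higher in AB1 (log2 difference -5.88, SE 0.106, adjusted p = 6.46e-10). A second Rspo2 probe set read 6.46 ± 0.06 in AC29 and 6.46 ± 0.18 in AB1 (SD, n = 3 each), so the probe sets disagree. Rspo3 and Rspo4 lay between 4.14 and 5.04 on all arrays, under the floor.

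Of the R-spondin receptors, Lgr6 was higher in AB1 and Lgr4 was present in both lines. Lgr6, also a stem cell marker of skin, read 6.12, 5.95 and 5.93 in AC29, against 8.23, 8.09 and 7.71 in AB1, 4.04-fold (adjusted p = 2.75e-06). Its second probe set put AC29 at 5.05 ± 0.07 and AB1 at 8.6 ± 0.37, a difference of at least 5.78-fold. Lgr4 read 8.49, 8.11 and 8.28 in AC29, against 7.66, 8.01 and 7.84 in AB1, a 1.37-fold difference toward AC29 without overlap (adjusted p = 0.0165). Lgr5, a stem cell marker of the gut, was not above the floor. The ligase Znrf3 read 6.49, 6.29 and 6.20 in AC29, against 7.50, 7.75 and 7.79 in AB1, 2.55-fold higher in AB1 (adjusted p = 1.11e-05), and its partner Rnf43 was under the floor in both lines. The AC29 values of Lgr6 and Znrf3 were near the floor.

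The secreted antagonists that were called were both Dickkopf genes and both higher in AB1. Dkk2, an LRP6-binding protein that can inhibit or weakly activate the pathway, read 3.79, 3.50 and 3.53 in AC29, against 10.63, 10.69 and 10.57 in AB1. No AC29 array reached the floor and all AB1 arrays were far above it, at least 23.6-fold (log2 difference -7.02, SE 0.101, adjusted p = 2.36e-10). Dkk3, a divergent family member whose part in Wnt signalling is disputed, read 5.27, 5.09 and 5.30 in AC29, against 10.37, 10.38 and 10.16 in AB1. It was at least 18.8-fold higher in AB1 (SE 0.100 on the log2 scale, adjusted p = 1.06e-09). A second Dkk3 probe set gave at least 14.6-fold in the same direction. Dkk1, the best studied inhibitor of LRP6, and Dkk4 lay between 3.84 and 4.27 on all arrays, under the floor.

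No other antagonist passed the call rule by its brightest probe set. Of 12 antagonists, 2 were called, beside 10.9% of all genes, and 10 were not. Of these 10, 5 (Dkk1, Dkk4, Frzb, Sfrp2 and Wif1) stayed under the floor on all 6 arrays. Sfrp1 (6.65 ± 0.01 in AC29 and 6.67 ± 0.19 in AB1, SD, n = 3 each), Sfrp4 (7.22 ± 0.12 in AC29 and 7.11 ± 0.07 in AB1) and Sfrp5 (6.73 ± 0.04 in AC29 and 6.62 ± 0.04 in AB1) read above the floor in both lines, with adjusted p-values of 0.897, 0.399 and 0.345. Notum, a secreted enzyme that removes the lipid of Wnt proteins, lay at the floor.

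Apcdd1, a membrane protein that binds Wnt ligands and inhibits them, was read differently by its 6 probe sets. The one with the highest mean read 6.27, 6.32 and 6.36 in AC29, against 6.49, 6.83 and 6.54 in AB1, 1.24-fold apart and near the floor (adjusted p = 0.0466). Another read 4.25, 3.76 and 4.33 in AC29, against 8.62, 8.94 and 8.77 in AB1, at least 6.52-fold higher in AB1 (adjusted p = 2.73e-08 over all 34945 single-symbol probe sets). The other 2 above the floor were also called higher in AB1, at least 2.95-fold and at least 1.5-fold. The representative of this gene was thus the probe set that was dim in both lines, and on the mean of its probe sets the difference was -2.0 and passed the rule.

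Of 7 members inside the cell, the Axin, feedback and TCF/LEF genes, 1 was called, beside 10.9% of all genes. Axin1, the scaffold of the complex that marks beta-catenin for degradation, read 9.93, 9.82 and 10.16 in AC29, against 8.84, 9.06 and 8.80 in AB1. It was 2.10-fold higher in AC29 (log2 difference 1.07, SE 0.114, adjusted p = 6.17e-05) and 0.97 without AC29 replicate 15, under the minimum. Axin2, a target gene used as a readout of beta-catenin activity, read 6.90, 6.70 and 7.0 in AC29, against 7.07, 7.15 and 7.22 in AB1. The groups did not overlap, but the difference of -0.28 had an adjusted p of 0.0546. Lef1, a TCF/LEF factor that is itself a target, read 5.77, 5.78 and 6.08 in AC29, against 6.58, 6.80 and 6.72 in AB1, 1.77-fold toward AB1 (adjusted p = 0.000275). Nkd1 (6.45 ± 0.09 in AC29 and 6.28 ± 0.08 in AB1, SD, n = 3 each), an inhibitor of Dishevelled and also a target, Nkd2, and the repressor Tcf7l1 (7.42 ± 0.05 in AC29 and 7.54 ± 0.08 in AB1) did not pass. Tcf7l2 was under the floor in both lines by all of its probe sets. Between these dim values, its probe sets other than the brightest differed by 1.48, 1.02 and 0.67 toward AC29. The differences of 1.48 and 1.02 passed the call rule.

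The other probe sets of the members gave a second reading of the same RNA. Of 65 other probe sets, 21 were above the floor on an array, and they belong to 18 members; over all 34945 single-symbol probe sets 10.3% were called. For called members there were 8 such probe sets, of which 7 had the direction of the call, 5 were called in that direction and none was called in the opposite one. The exception was the second probe set of Rspo2. The second probe set of Fzd6 put AC29 at 8.58 ± 0.19 and AB1 at 5.84 ± 0.10 (SD, n = 3 each), at least 5.69-fold apart, and Wnt5a by its second one at 6.26, 5.50 and 5.96 in AC29, against 3.12, 3.37 and 2.95 in AB1. For Fzd5 the second probe set differed by -0.96, short of the minimum, and those of Fzd7 and Fzd4 by 0.36 and 0.20. Among members that were not called, 2 had another probe set above the floor that was: Apcdd1, and Ror1, whose other probe set read 6.21, 5.79 and 6.25 in AC29, against 3.28, 3.21 and 3.36 in AB1. The AC29 values of Ror1 lay at the floor, so its fold has a lower bound of 1.01.

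**Figure D3:**
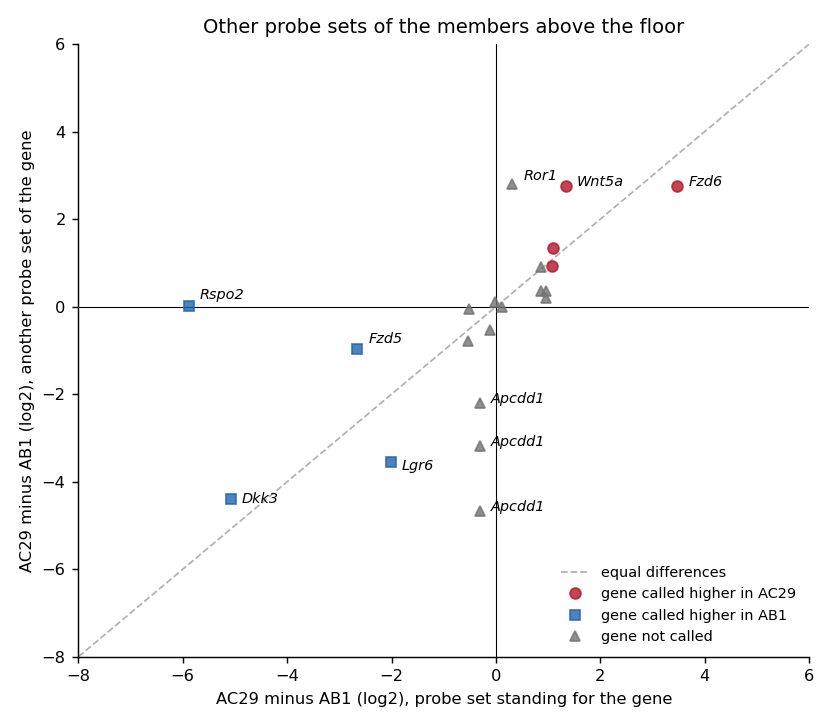
For the 21 other probe sets above the floor, the difference AC29 minus AB1 on the log2 scale (y axis) against that of the probe set that stands for the gene (x axis), with the dashed line at equal differences. Points in the upper right and lower left have the same sign by both probe sets; Rspo2 sits at 0 on the y axis, the 3 Apcdd1 points lie far under the line, and Ror1 lies above it.

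Other genes of the pathway were taken from 5 lists of 151 genes, of which 143 were measured. Among these, 12 passed the rule toward AC29 and 21 toward AB1, which is 23.1% together, beside the 10.9% of all genes. In the list of secretion factors, co-receptors and other extracellular modulators, 3 of 23 genes passed toward each line, together 26.1%. Adgra2, a co-receptor for Wnt7 ligands in brain vessels, read 6.60, 5.79 and 6.36 in AC29, against 10.37, 10.40 and 10.24 in AB1, 17-fold higher in AB1 (adjusted p = 1.57e-07). The glypicans Gpc6 (4.82-fold) and Gpc4 (4.27-fold), cell surface carriers of heparan sulfate, were also higher in AB1, while the sulfatase Sulf1 (2.98-fold) and the receptor Ptk7 (2.01-fold) were higher in AC29. Wls, the carrier that Wnt proteins need for secretion, read 11.27 ± 0.11 in AC29 and 10.69 ± 0.03 in AB1 (SD, n = 3 each), 1.49-fold. Igfbp4, an IGF-binding protein, was 1.67-fold toward AC29 without overlap.

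In the cytoplasmic relay 3 of 30 genes and among the nuclear cofactors 2 of 20 were called, 10% of each list, a share near the 10.9% of all genes. Cxxc5, which binds Dishevelled, was 10.4-fold higher in AC29 (9.54 ± 0.39 in AC29, against 6.16 ± 0.23 in AB1, close to the floor, SD, n = 3 each), Ctnnbip1, which blocks beta-catenin from TCF factors, 2.03-fold higher in AC29, and Frat2, which inhibits Gsk3, 2.01-fold higher in AB1. Ctnnb1, which encodes beta-catenin, read 13.13 ± 0.17 in AC29 and 12.38 ± 0.03 in AB1, 1.68-fold (adjusted p = 0.000277), under the 2-fold minimum, and the arrays of Csnk1a1, a kinase that primes beta-catenin for degradation, overlapped. Of the nuclear cofactors, Ctbp2 (2.39-fold) and Tle4 (at least 1.42-fold), both corepressors, were higher in AB1 and none was higher in AC29. Ruvbl2, an ATPase of chromatin complexes, was 1.69-fold toward AB1 without overlap, and the arrays of Ctbp1 overlapped.

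In the planar polarity and calcium list, 1 of 31 genes was higher in AC29 and 6 in AB1, together 22.6%, beside 10.9% of all genes. The polarity gene Prickle2 had means of 3.99 ± 0.15 for AC29 and 8.03 ± 0.09 for AB1 (SD, n = 3 each), at least 3.89-fold. The phospholipases Plcb1 (at least 7.13-fold) and Plcb4 (at least 4.55-fold), the calcium-regulated factor Nfatc4 (4.95-fold) and the polarity gene Prickle1 (at least 1.18-fold) were likewise higher in AB1. Daam2, a formin that binds Dishevelled, was at least 1.86-fold higher in AC29. The bright GTPases Rac1 and Rhoa differed by 0.29 and -0.43 on the log2 scale and were not called.

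Reported beta-catenin target genes outside the members went in both directions, 6 of 39 higher in AC29 and 9 higher in AB1. Together 38.5% of this list were called, beside 10.9% of all genes. Fgf18, a growth factor, was at least 10.5-fold, Ccn4, a matricellular protein first described as Wnt-induced, 11.6-fold (11.83 ± 0.01 in AC29 and 8.30 ± 0.06 in AB1, SD, n = 3 each), Tiam1, an exchange factor for Rac, at least 5.16-fold, the receptor Met 3.85-fold and Edn1, a vasoconstrictor peptide, 2.62-fold higher in AC29. Ptgs2, a prostaglandin enzyme (6.59-fold), the transcription factors Twist1 (5.12-fold) and Jun (4.71-fold), Id2 (3.04-fold) and Vegfa (2.93-fold) were higher in AB1. Gja1, a gap junction protein, differed by -0.48 and Birc5, an inhibitor of apoptosis, by 0.20, and neither was called. Most of these genes also respond to other pathways. Of the target genes that belong to the feedback of the pathway itself, Axin2, Nkd1, Notum, Lgr5, Rnf43 and Lef1 were not called and Znrf3 was higher in AB1. Of those not called, Lef1 passed the adjusted p, 1.77-fold toward AB1.

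**Figure D4:**
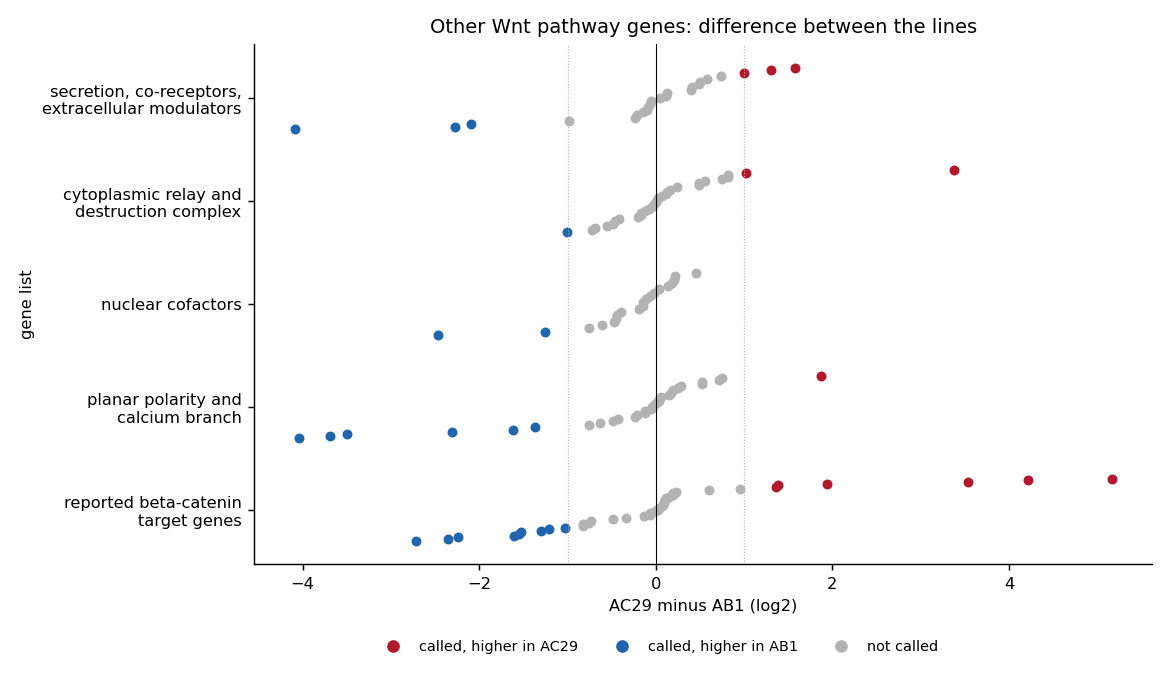
Difference AC29 minus AB1 on the log2 scale (x axis) for the 143 measured genes of the 5 lists (y axis), with called genes in red (12 higher in AC29) and blue (21 higher in AB1) and dotted lines at a 2-fold difference. The planar polarity and calcium list has 6 of its 7 called genes on the AB1 side, and the target gene list spreads to both sides.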

How the data were processed

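Total RNA of 3 AC29 and 3 AB1 flasks was hybridised to 1 array each, per the labels' protocols. The deposited table holds 1 log2 intensity per probe set and array; GCOS, RMA and Partek 6.4 stand in the submitters' processing notes, with no role given. RMA corrects background, normalizes by quantiles and summarises probes, and it compresses dim values. That the deposited scale is log2 was taken from the range of the values.

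The 64 control probe sets of 45101 were left out. Names came from the platform annotation (34945 probe sets with 1 symbol, 932 with several, 9160 with none). All probe sets were modelled by line alone with limma 3.58.1 (R 4.3.3, eBayes, 2-sided), with Benjamini-Hochberg adjustment over 18193 genes. Calls needed an adjusted p under 0.05 and a 2-fold difference. The floor is the 95th percentile (6.07) of 86 receptor probe sets. On simulated data of this comparison (18193 genes, 50 changed per size), 48% of log2 changes of 1 and 100% of those of 1.5, 2 and 4 were called. A change of 1 is the minimum of the call rule itself, so its share reflects the cutoff and does not measure sensitivity. Changes were added at full size to dim genes too, while RMA compresses dim values. The shares therefore do not hold for genes under the floor. Members and lists were chosen with earlier results of these data known. Named in full were called members above the floor and the 12 brightest above it in both lines; in each list up to 5 called genes a direction above the floor in a line, by size, and the 2 brightest not called. Protein sequences were not used here. The number of arrays limits precision.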

Additional observations from a re-analysis of the deposited data

How the results depend on the processing

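The direction of the 15 called members held in all 225 alternatives run on their differences, and 8 of these alternatives ended a call. Alternatives that changed only the error estimate or the test kept each difference as it was, so they could not change a direction. Nor could the choice of probe set for genes with 1 probe set, so the count of 225 overstates the support for the directions. Requiring limma to test against a 2-fold difference left 5 members toward AC29 and 6 toward AB1, without Axin1, Wnt6, Wnt5a and Znrf3; averaging all probe sets per gene ended the calls of Axin1 (0.99), Ror2 (-0.96) and Znrf3 (-0.80), which have a dim second probe set or one with a smaller difference. Without the 2-fold minimum 17 members passed toward AC29 and 12 toward AB1, and with a 1.5-fold minimum 13 were higher in AC29. Leaving out 1 array gave 7 to 10 members toward AC29 and 7 toward AB1. For the 143 other pathway genes, higher in AC29 were 31 without a minimum, 20 at 1.5-fold, 7 against a 2-fold difference and 19 by the most variable probe set, and higher in AB1 were 42 without a minimum and 32 at 1.5-fold; leaving out 1 array gave 10 to 12 and 19 to 22.

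With the floor at the 99th percentile (7.23) instead of the 95th, 19 members in AC29 and 18 in AB1 were above it, against 32 and 35, and the lowest folds of Dkk2, Dkk3, Rspo2 and Rspo1 were 10.6, 8.43, 5.71 and 2.77. Differences that changed sign belonged to members that were not called: Fzd10 (-0.13), Nkd2 (-0.16), Sfrp5 (-0.0078) and Wnt7a (-0.13) by the most variable probe set, Nkd2 (-0.035) and Wnt7a (-0.0066) by the mean of probe sets, Sfrp1 (0.10) without probe sets open to cross-hybridisation, and, leaving out 1 array, Nkd2 (-0.076 to 0.078) and Sfrp1 (-0.13 to 0.041). No paired analysis was run, because the flasks are separate cultures of different lines and the labels give no pairing. Background correction at probe level and scan batches were not analysed here.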

Other observations

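Members of the Wnt family lie side by side on the mouse genome in 4 pairs with no protein-coding gene between them in RefSeq's table. Wnt6 and Wnt10a, such a pair, were both higher in AC29 (log2 differences of 1.09 and 1.97). In the pair of Wnt9a and Wnt3a, Wnt9a was higher in AC29 (1.69) while Wnt3a was under the floor in both lines. In the pairs of Wnt9b with Wnt3 and of Wnt10b with Wnt1 no gene was called. Whether the pairs share regulation was not tested.

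Adgra2 acts with Reck as a co-receptor for Wnt7a and Wnt7b. Reck, named here after its values were seen, read 6.61, 6.05 and 6.38 in AC29, against 6.55, 6.67 and 6.50 in AB1 (adjusted p = 0.231), so that of these 4 genes Adgra2 alone was called. Dvl1 and Dvl2, which encode Dishevelled proteins and were also picked after their values were seen, read 10.24 ± 0.27 and 8.56 ± 0.23 in AC29, against 9.42 ± 0.05 and 7.74 ± 0.13 in AB1 (SD, n = 3 each). Both differed by 0.82 on the log2 scale toward AC29, under the 2-fold minimum.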
